A study of Mus musculus with 6 samples.

Results

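The genes described here make, use or recycle glutathione and thioredoxin, or otherwise remove oxidants, quinones and free metal ions. They were chosen by name, as 41 mouse genes in 5 roles, and every array probe whose annotated symbol is one of the 41 was taken. Of the 41 genes, 38 had a probe, 57 probes in all. Of the 38, 34 passed the filter for dim probes and could be tested, out of 6430 tested named genes and 16593 named genes on the array. The lenses came from 2 groups of C57BL/6J mice aged 18 weeks. The first group was 3 mice homozygous for Fgf9 Y162C, an amino acid substitution in the secreted growth factor FGF9 on both copies of the gene. The second was 3 wild-type mice, and each mouse gave 1 Illumina array. The labels name no treatment and no other allele in either group. The labels call 2 of the 3 homozygotes and 1 of the 3 wild-type mice female.

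The lens is a transparent tissue whose fibre cells lose their nuclei and keep the same crystallin proteins for life. It holds glutathione at a high concentration, and loss of reduced glutathione and oxidation of protein thiols are well-known features of cataract. Glutathione is built from glutamate, cysteine and glycine in a pair of ATP-dependent steps. Peroxidases and transferases spend it on peroxides and on electrophiles, and the thioredoxin system runs beside it, passing electrons from NADPH to peroxiredoxins and to other protein disulfides. Many of these genes are transcribed under the factor NRF2, which binds a short DNA motif known as the antioxidant response element, and metallothioneins are induced by metals through metal response elements.

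Promoter windows of 300 bases, 250 before and 50 after a gene's start, were taken from RefSeq (GRCm38.p6) for 35 of the 41 members, 44 windows in all, to show the DNA on which these factors are known to act. The antioxidant motif was searched as TGACNNNGC on both strands, and it was found in 8 of the 44 member windows (18.2%) and in 4071 of 32851 windows of all genes (12.4%). The 8 matches, each of a different gene, are printed on the strand that reads as the motif, with the motif in capitals and 8 bases on either side.
Srxn1: tctcactcTGACCTAGCtgcccact
Gstm5: ccgcccacTGACCACGCggagggcg
Gclm: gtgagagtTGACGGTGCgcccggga
Prdx1: acgggggaTGACTCAGCgctttccc
Mgst1: ccgcctccTGACCGTGCcaagcccc
Mt2: agggggtgTGACTCAGCgcgggggg
Txnrd1: tgtcagaaTGACAAAGCaaaaatcc
Sod1: cctgagtcTGACCACGCccaccttg
The metal motif was searched as TGCACNC and TGCGCNC on both strands. It was found in 15 of 44 member windows (34.1%) and in 8444 of all 32851 windows (25.7%), and the 15 windows belong to 13 genes. A short motif also occurs by chance, and a match is not a binding site.

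Whole windows are shown for 4 of the 7 members with an unadjusted limma p under 0.05 in the comparison below. They are not the 4 with the smallest p. Gpx3 was the member that passed, and its window held 0 matches to the antioxidant motif and 0 to the metal motif. In Gstk1 and Mt1 the capitals mark 2 and 3 matches to the metal motif, and in Sod1 they mark the 1 match to the antioxidant motif. The windows of Gstk1 and Mt1 held 0 antioxidant matches, and that of Sod1 held 0 metal matches.
Gpx3, chr11:54902604-54902903, plus strand: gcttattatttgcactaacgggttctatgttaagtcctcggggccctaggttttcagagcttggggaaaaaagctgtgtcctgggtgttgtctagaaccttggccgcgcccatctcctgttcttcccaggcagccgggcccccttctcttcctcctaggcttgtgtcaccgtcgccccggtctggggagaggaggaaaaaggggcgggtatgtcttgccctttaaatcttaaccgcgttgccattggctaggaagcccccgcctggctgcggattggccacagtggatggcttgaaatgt
Gstk1, chr6:42245685-42245984, plus strand: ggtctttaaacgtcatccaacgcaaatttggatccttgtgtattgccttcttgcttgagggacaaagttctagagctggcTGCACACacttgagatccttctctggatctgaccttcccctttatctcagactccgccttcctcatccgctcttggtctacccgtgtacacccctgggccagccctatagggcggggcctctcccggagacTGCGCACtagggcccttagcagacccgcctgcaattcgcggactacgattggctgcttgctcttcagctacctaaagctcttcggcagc
Mt1, chr8:94178839-94179138, plus strand: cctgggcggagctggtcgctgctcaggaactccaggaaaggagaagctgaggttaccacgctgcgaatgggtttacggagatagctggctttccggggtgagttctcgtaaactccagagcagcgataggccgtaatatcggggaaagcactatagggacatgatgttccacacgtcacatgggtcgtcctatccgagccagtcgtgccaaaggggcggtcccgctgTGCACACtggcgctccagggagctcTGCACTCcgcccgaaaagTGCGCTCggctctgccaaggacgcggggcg
Sod1, chr16:90220512-90220811, plus strand: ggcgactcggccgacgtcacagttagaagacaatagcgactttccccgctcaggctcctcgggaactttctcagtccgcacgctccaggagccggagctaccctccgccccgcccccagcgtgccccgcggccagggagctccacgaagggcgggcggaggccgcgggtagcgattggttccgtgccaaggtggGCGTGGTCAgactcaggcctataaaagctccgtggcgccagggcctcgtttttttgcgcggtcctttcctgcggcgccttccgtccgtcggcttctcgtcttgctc

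Mean signal, before any normalization, was 161.6 to 165.7 on the homozygous arrays and 191.0 to 200.4 on the wild-type arrays, and 7816 to 8396 and 8713 to 9671 probes were above background. Of 10 lens fibre markers on the array 9 were above background on enough arrays to be tested, and Gja3 was not above background on any array. Wild type replicate 2 stood apart on the first principal component, at 31.1 against -17.0 to 7.89 for the other 5 arrays. Markers of photoreceptors were high on it: their summed signal was 3154 to 5407 on the homozygous arrays, and 4055, 18314 and 4984 on wild type replicates 1, 2 and 3. The labels give wild type replicate 3 as male, yet Xist was above background on it (signal 149.7 and 128.3 for its 2 probes) and Y-linked Eif2s3y was not (75.7), as on the arrays labelled female.

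The comparison asks whether the antioxidant genes differ in lenses in which FGF9 carries the substitution. In homozygous lenses 1 of the 34 tested members passed, at a limma adjusted p under 0.05 over all tested probes. It was Gpx3, which was lower. Of all tested genes 0.435% passed (0.327% lower and 0.109% higher), and a count of 1 member says little about the 34 as a set. The median log2 fold change of the 34 members, homozygous minus wild type, was 0.04, with 19 above 0 and 15 below, and that of all tested genes was -7.27e-05. When the arrays were scaled by their medians over all probes, all tested genes shifted to a median of -0.32 and the members to -0.33. At an unadjusted limma p under 0.05 there were 7 members, 3 higher and 4 lower, against 9.14% of all tested genes (3.98% higher and 5.16% lower). The homozygous and wild-type values did not overlap in 9 members, 4 of them higher and 5 lower in homozygous lenses, against 15.1% of all tested genes (7.42% higher and 7.64% lower). Without wild type replicate 2 these counts were 10 and 11 of 34, against 6.79% and 22.0% of all tested genes, and without wild type replicate 3 they were 6 and 13, against 7.82% and 24.0%. With 3 mice per group the smallest p of an exact permutation test over arrays is 0.1, so p-values here are those of the limma fit over all probes.

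**Figure D1:**
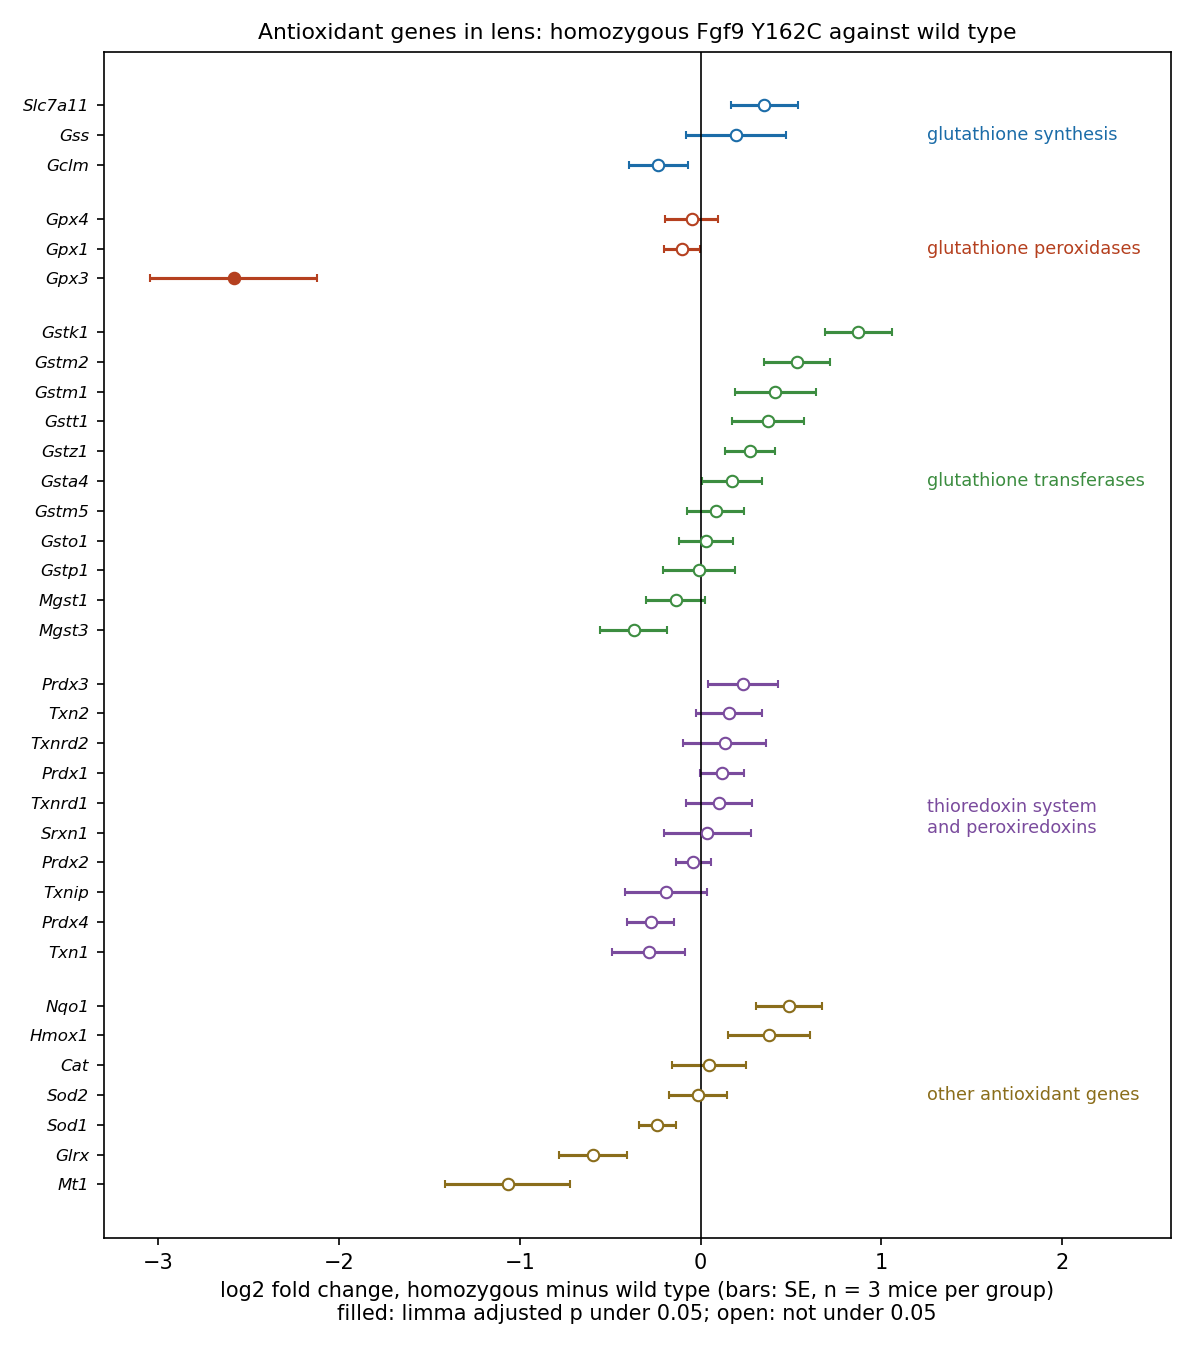
Log2 fold change of each of the 34 tested members, homozygous minus wild type, on the horizontal axis, with bars for the SE and members grouped by role. Gpx3, at -2.58, is the only filled point (limma adjusted p under 0.05); the other 33 lie between -1.07 and 0.87.

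Glutathione synthesis was covered by 3 tested genes of 5 listed, and 0 passed, with 0 at an unadjusted limma p under 0.05. Gclc encodes the catalytic subunit of the rate-limiting ligase. Its single probe was not above background on any of the 6 arrays, with signals of 79.2 to 92.0 in homozygous and 82.2 to 89.7 in wild-type lenses. Gsr, the glutathione reductase, had no annotated probe. Slc7a11, the exchanger that imports cystine, had normalized log2 signals of 7.01, 6.91 and 6.51 in homozygous lenses and 6.52, 6.62 and 6.24 in wild-type lenses. Its groups overlapped narrowly and it did not pass (log2 fold change 0.35, 95% interval -0.06 to 0.76, limma adjusted p = 0.613). Gclm, the modifier subunit of the ligase, had 7.20, 7.47 and 7.57 in homozygous lenses and 7.81, 7.71 and 7.42 in wild-type lenses. Here the homozygous values lay mostly below, with overlap (log2 fold change -0.24, limma adjusted p = 0.694). Gss, the synthetase that adds glycine, had 9.10, 8.65 and 8.99 in homozygous lenses and 9.40, 7.98 and 8.77 in wild-type lenses on its brightest probe. The lowest value was that of wild type replicate 2, and the highest that of wild type replicate 1. The log2 fold change was 0.20 with all 6 arrays (limma adjusted p = 0.865), -0.17 without the lowest array and 0.54 without the highest, all on this probe. The other 2 Gss probes did not show this low value and gave -0.08 and -0.10.

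Among the glutathione peroxidases, which reduce peroxides at the expense of glutathione, Gpx3 fell and the other 2 tested members did not pass. Gpx3 encodes a secreted enzyme of plasma and extracellular fluids, the aqueous humour of the eye among them. Its normalized log2 signal was 4.65, 5.74 and 5.85 in homozygous lenses and 7.89, 6.94 and 9.15 in wild-type lenses. All homozygous values lay below all wild-type values, and the spread within the wild type was wide (5.41 ± 0.66 and 7.996 ± 1.11, mean ± SD, n = 3 each). The probe exceeded background on 2 homozygous arrays and on all 3 of the wild type, with raw signals of 94.4, 113.4 and 114.2 against 329.8, 227.8 and 701.6. The fitted change was 5.99-fold lower (log2 fold change -2.58, SE 0.46, 95% interval -3.59 to -1.58, limma adjusted p = 0.0395). The call was lost without homozygous replicate 1, 2 or 3 and without wild type replicate 3, with adjusted p-values of 0.265, 0.125, 0.165 and 0.104, and the log2 fold change then lay between -2.82 and -1.99. Without wild type replicate 2 it was -3.09 (limma adjusted p = 0.000285). The call was kept in 9 of the 20 alternative settings that tested the gene, and its sign in all 20.

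Markers of cells next to the lens are given beside this value, as normalized log2 signals. All 5 tested inner retina and glia markers lay lower in homozygous lenses without overlap, and 4 passed. Among the 4 was the calcium-binding protein Calb2, with 4.86, 5.57 and 4.83 in homozygous lenses and 7.27, 7.74 and 7.27 in wild-type lenses (log2 fold change -2.34, limma adjusted p = 0.00102). The other 3 that passed were the glutamate transporter Slc1a3 at -1.98, Slc17a6 at -1.43 and Sncg at -1.39 (limma adjusted p = 0.0024, 0.0386 and 0.0076). Thy1, at -1.44, did not pass (limma adjusted p = 0.0579), and 5 of 13 markers on the array were not above background on any array. None of the 8 tested pigment cell markers passed. Ttr, a transthyretin gene active in pigment epithelium, had 5.75 to 7.09 in homozygous and 7.28 to 9.98 in wild-type lenses (log2 fold change -1.91, limma adjusted p = 0.316). Dct (-1.25), Tyrp1 (-0.81) and Mlana (-0.27) also lay lower in homozygous lenses without overlap (limma adjusted p = 0.171, 0.174 and 0.631). Tyrp1 and Mlana were above background on no homozygous array. Slc45a2 had the opposite sign (0.25), and Pmel (-0.34), Rdh5 and Rgr overlapped between the groups. These retinal and pigment values were mostly highest on wild type replicate 2, where Gpx3 was the lowest of the wild type. A relation between the retinal or pigment values and Gpx3 was not tested.

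The ciliary epithelium secretes the aqueous humour, and of its 5 markers with a probe 2 were tested and 0 passed. Wfdc1 had 4.70, 4.51 and 4.42 in homozygous lenses, above background on none, and 5.98, 4.94 and 6.67 in wild-type lenses (log2 fold change -1.32, limma adjusted p = 0.194). Msx1 had the opposite sign, with 7.82 to 8.03 in homozygous and 7.56 to 7.63 in wild-type lenses (log2 fold change 0.32, limma adjusted p = 0.491). Otx1 was not tested and had 4.36, 4.42 and 4.53 in homozygous lenses and 5.55, 4.60 and 6.02 in wild-type lenses. Zic1, also untested, overlapped between the groups, and Zic2 was not above background on any array. The wild-type values of Wfdc1 and Otx1 had the same order over the 3 arrays as those of Gpx3. That order was not particular to them. It was shared by Msx1 and Zic1 and by the macrophage markers Laptm5, Lyz1 and Fcer1g, though not by C1qb or Aif1. With 3 arrays such an order says little, and its relation to Gpx3 was not tested.

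Of 5 tested macrophage and leukocyte markers 1 passed, Laptm5, which was lower (log2 fold change -1.25, limma adjusted p = 0.0113). Lyz1, C1qb and Fcer1g did not pass, but all their homozygous values lay below all wild-type values. Their log2 fold changes were -1.24, -0.61 and -0.52 (limma adjusted p = 0.0909, 0.281 and 0.387). C1qb and Fcer1g were above background on no homozygous array. Aif1 lay slightly higher in homozygous lenses, at 5.33 to 5.40 against 5.16 to 5.27, and C1qa, Ptprc and Tyrobp were not above background on any array. Of 2 tested blood and endothelium markers neither passed. The haemoglobin gene Hba-a1 had 7.10, 5.08 and 4.44 in homozygous lenses and 6.93, 8.36 and 8.20 in wild-type lenses, with overlap (log2 fold change -2.29, limma adjusted p = 0.159). Kdr stood at -0.05, and Alas2, Cdh5 and Pecam1 were not above background on any array. The summed raw signal was 1057 to 1150 in homozygous and 1420 to 2083 in wild-type lenses for inner retina, and 881 to 1063 against 1243 to 3189 for pigment cells. It was 570.5 to 631.3 against 681.6 to 798.5 for the ciliary epithelium and 842 to 894.4 against 1004 to 1139 for macrophages. Raw sums include background, and the mean raw signal of all probes was also lower on the homozygous arrays. The part of these cells in the Gpx3 value was not tested, and in lens RNA fewer cells of a type and less RNA per cell cannot be told apart.

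Gpx1, the cytosolic and mitochondrial peroxidase, had 11.22, 11.39 and 11.39 in homozygous lenses and 11.54, 11.38 and 11.39 in wild-type lenses. These values overlapped closely, and the log2 fold change was -0.10 (95% interval -0.32 to 0.12, limma adjusted p = 0.789). Gpx4, which reduces lipid hydroperoxides inside membranes, had a log2 fold change of -0.05 (95% interval -0.37 to 0.27) on the brighter of its 2 probes, and the dimmer was not above background on any array. Gpx7, a peroxidase of the endoplasmic reticulum, was above background on 0 homozygous and 2 wild-type arrays and was not tested. A difference between Gpx3 and the other peroxidases in their response was not tested as such.

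**Figure D2:**
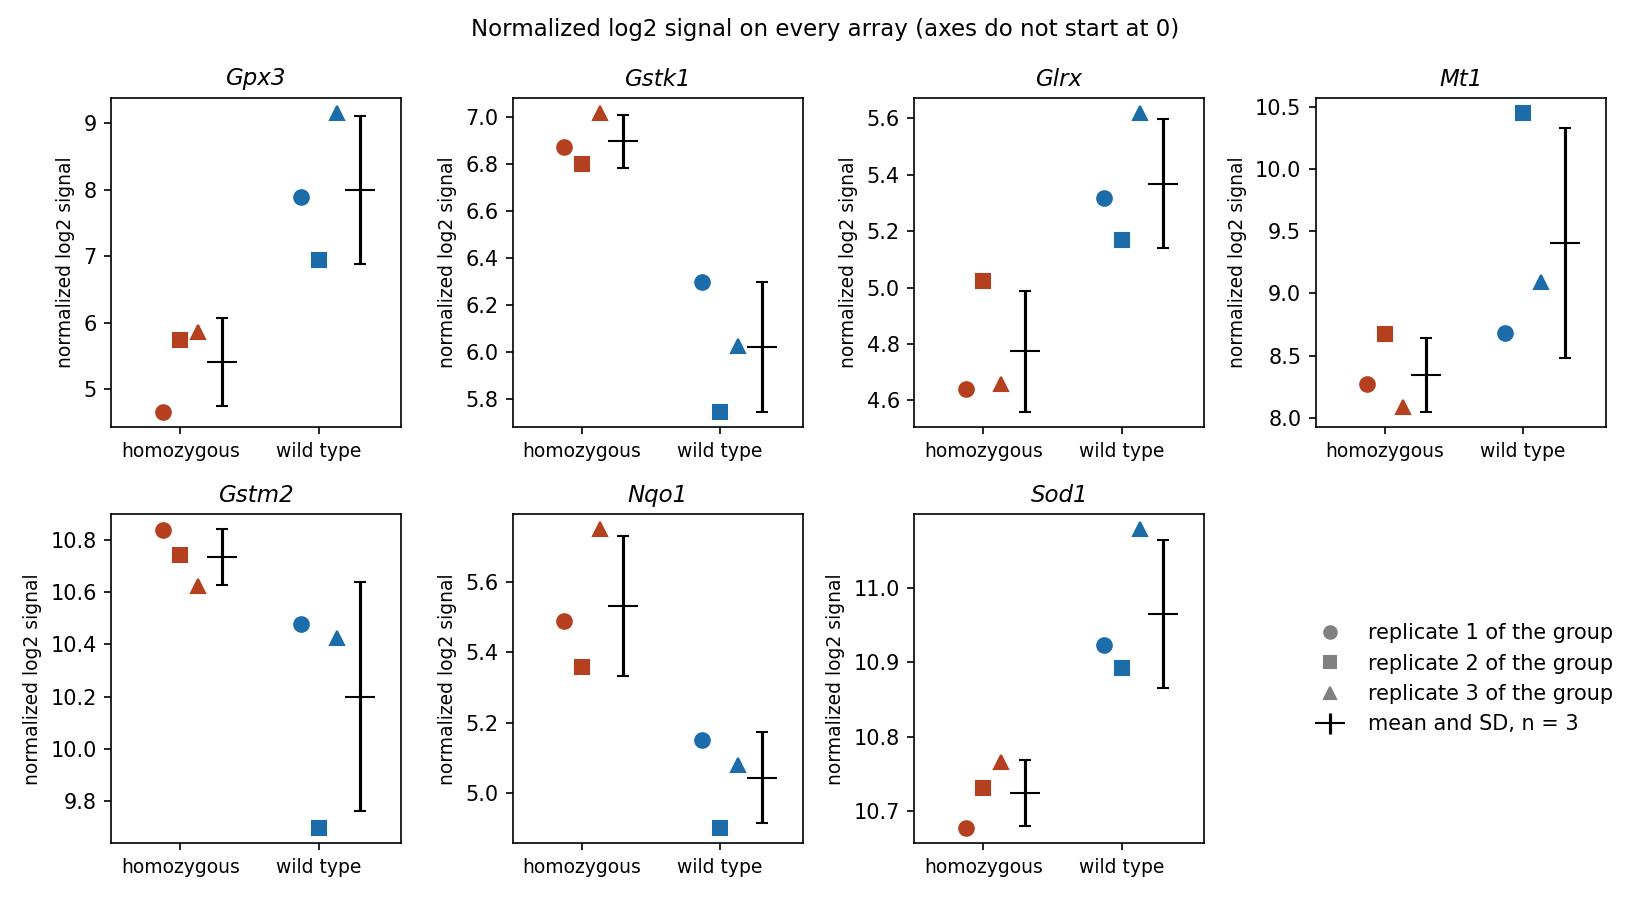
Normalized log2 signal on each of the 6 arrays for the 7 members with an unadjusted limma p under 0.05, homozygous on the left and wild type on the right of each panel, with mean and SD (n = 3 mice). In all 7 the groups do not overlap; Mt1 has its highest value, 10.45, and Gstm2 its lowest, 9.70, on wild type replicate 2.

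The glutathione transferases conjugate glutathione to electrophiles. All 11 listed were tested and 0 passed. An unadjusted limma p under 0.05 was found in 2 (18.2%), against 9.14% of all tested genes. In log2 fold change 8 (72.7%) lay above 0 (median 0.17), against 50% of all tested genes. Under scaling by the medians of all probes Gstk1, Gstm2 and Gstt1 were above 0 and the other 8 below, beside the shift of -0.32 in all genes. Gstt1 lay near background, with raw signals of 99.4 to 106.0 in homozygous and 94.1 to 107.8 in wild-type lenses. Gstk1, the kappa-class enzyme of mitochondria and peroxisomes, had 6.87, 6.80 and 7.02 in homozygous lenses and 6.30, 5.74 and 6.03 in wild-type lenses. All homozygous values lay above all wild-type values, also before normalization (signals of 163.8 to 173.4 and 138.0 to 153.4). The log2 fold change was 0.87 (SE 0.18, 95% interval 0.47 to 1.27), which did not pass (limma adjusted p = 0.0887). It did pass with array weights, with robust variance or without wild type replicate 1, at limma adjusted p-values of 0.028, 0.039 and 0.0225. It also passed with the replicate number as a block, which makes 4 of 21 alternatives, and the smallest limma adjusted p of all was 0.0199.

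Gstm2, a mu-class enzyme, had 10.84, 10.74 and 10.62 in homozygous lenses and 10.48, 9.70 and 10.43 in wild-type lenses. The homozygous values lay above, and the log2 fold change was 0.53 (SE 0.18, limma adjusted p = 0.383). The 2 dimmer probes gave 0.62 and 0.68, and each separated the groups as well. Wild type replicate 2 was the lowest on all 3, and without it the value was 0.29. Before normalization the groups overlapped, with signals of 1400 to 1584 and 1091 to 1692. Gstm1 had 9.77, 9.80 and 9.79 in homozygous lenses and 9.89, 8.75 and 9.48 in wild-type lenses, so that the SD was 0.01 and 0.58 (n = 3 each). The homozygous arrays agree closely there, while the wild type spans more than they do on either side (log2 fold change 0.41, limma adjusted p = 0.615), and without wild type replicate 2 the value was 0.10. The mu-class genes are similar in sequence, and a probe of one may bind the transcripts of another.

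Gstp1, the pi-class enzyme, had 11.03, 10.86 and 10.93 in homozygous lenses and 11.27, 10.36 and 11.22 in wild-type lenses, with a log2 fold change of -0.01 (95% interval -0.44 to 0.43), and -0.30 without wild type replicate 2. Its dimmer probe gave -0.13. Gstz1, an enzyme of tyrosine breakdown, did not overlap between the groups, with 7.67 to 7.86 in homozygous and 7.41 to 7.56 in wild-type lenses (log2 fold change 0.27, limma adjusted p = 0.598). The membrane-bound Mgst3 had a value of the other sign, -0.37 (limma adjusted p = 0.599), and its second probe, above background on 0 homozygous and 3 wild-type arrays, gave -0.29. The remaining transferases, Gsta4, Gstm5, Gsto1, Gstt1 and Mgst1, lay between -0.14 and 0.37. Mgst1, at -0.14, had a dimmer probe at 0.05.

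Wild type replicate 2 held the lowest of the 6 values for 8 of the 11 transferases, whereas it held the lowest for 22.3% of all tested genes. The median transferase signal lay -0.23 from the 6-array mean on that array, with 0.11 to 0.15 on homozygous arrays, -0.02 on wild type replicate 1 and 0.01 on replicate 3. Without it the median log2 fold change of the 11 was 0.10. Retinal markers were high on the same array. Lens epithelium markers lay on average 0.17 to 0.25 from their 6-array mean on homozygous arrays. On wild type replicates 1, 2 and 3 they lay at -0.24, -0.12 and -0.29. Of 6 tested, Aqp1 passed and was higher (log2 fold change 1.30, limma adjusted p = 0.0034). Cdh1, Col4a1, Gja1 and Igfbp7 lay higher without passing, and Slc38a3 lay lower (-0.30). The part of either cell type in the transferase values was not tested.

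**Figure D3:**
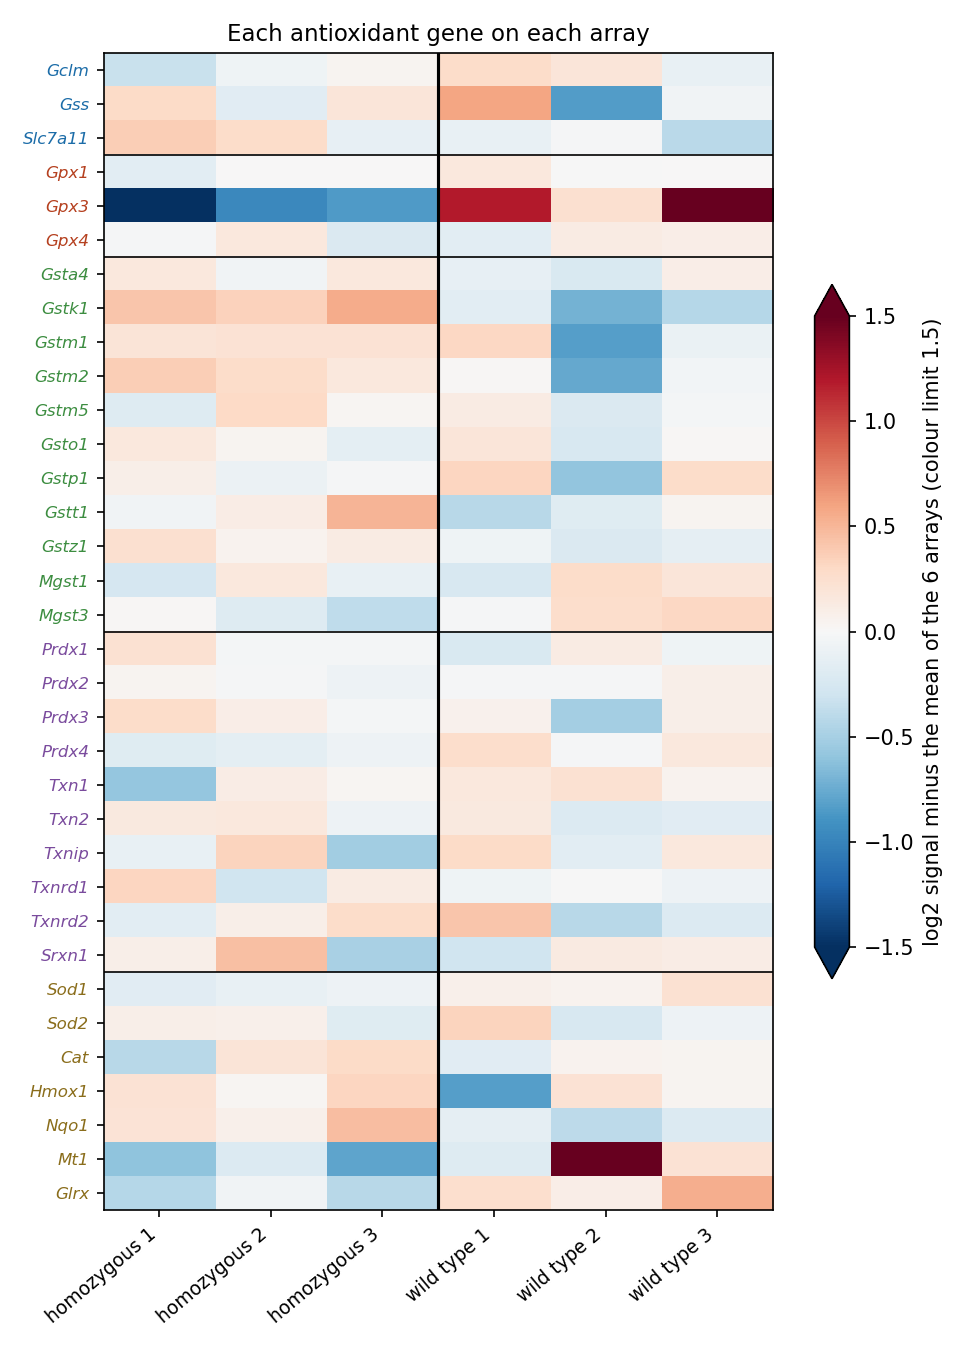
Log2 signal of the 34 tested members on each array minus the member's mean over the 6 arrays, in colour, with homozygous arrays on the left, wild-type arrays on the right and names coloured by role. Gpx3 is low on all 3 homozygous arrays, and on wild type replicate 2 a block of transferases is low while Mt1 is high.

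In the thioredoxin system and the peroxiredoxins, 10 of 12 listed genes were tested and 0 passed, with 0 at an unadjusted limma p under 0.05, a median log2 fold change of 0.07 and a range of -0.29 to 0.24. Prdx5 and Prdx6 had no annotated probe. Prdx4, the peroxiredoxin of the endoplasmic reticulum, was the one member of this role whose groups did not overlap, with 8.28, 8.32 and 8.39 in homozygous lenses and 8.73, 8.45 and 8.63 in wild-type lenses. Its values were lower by a small amount and did not pass (log2 fold change -0.28, SE 0.13, limma adjusted p = 0.577). Prdx4 lies on the X chromosome. With sex as a covariate, wild type replicate 3 counted as female, the fit was repeated for all genes and again 1 member passed, Gpx3 (limma adjusted p = 0.0415), and with sex as labelled 0 passed.

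Txn1, the cytosolic thioredoxin, had 4.45, 5.14 and 5.06 in homozygous lenses and 5.18, 5.25 and 5.08 in wild-type lenses on the brightest of its 3 probes. It was above background on 2 and 3 arrays of the groups, and the other 2 probes on none, so these probes measure it poorly (log2 fold change -0.29, limma adjusted p = 0.702). Prdx2, an abundant cytosolic peroxiredoxin of red cells and other tissues, had 11.06, 11.01 and 10.94 in homozygous lenses and 11.01, 11.01 and 11.12 in wild-type lenses. The groups differed by -0.04 with a 95% interval of -0.25 to 0.17, among the narrower intervals here. Prdx1 and mitochondrial Prdx3 had log2 fold changes of 0.12 and 0.24, and without wild type replicate 2 Prdx3 stood at 0.04. The reductases Txnrd1 and Txnrd2 had 0.10 and 0.13, but a dimmer Txnrd2 probe, above background on all 6 arrays, gave -0.32 (limma adjusted p = 0.708). Mitochondrial Txn2 stood at 0.16, the thioredoxin inhibitor Txnip at -0.19 and Srxn1, which restores overoxidised peroxiredoxins, at 0.04, with -0.16 on its dimmer probe. None of these passed, with limma adjusted p-values of 0.741 to 0.979.

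Of the 9 other antioxidant genes, 7 were tested and 0 passed. An unadjusted limma p under 0.05 was found in 4 (57.1%), against 9.14% of all tested genes, and 7 genes are few for such a share. Mt1 encodes metallothionein 1, a small cysteine-rich protein that binds zinc and copper. It had 8.27, 8.67 and 8.09 in homozygous lenses and 8.68, 10.45 and 9.09 in wild-type lenses. The homozygous values were lower with a very small gap between the groups, and 1 wild-type array stood far above the rest. The log2 fold change was -1.07 (SE 0.35, 95% interval -1.82 to -0.31, limma adjusted p = 0.355), -0.55 without wild type replicate 2 (limma adjusted p = 0.418) and -1.42 without wild type replicate 1, where it passed (limma adjusted p = 0.0394). Mt2, its neighbour on chromosome 8, had 1 probe, not above background on any array.

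Glrx, the glutaredoxin that removes glutathione from protein thiols, had 4.64, 5.02 and 4.66 in homozygous lenses and 5.32, 5.17 and 5.62 in wild-type lenses. It exceeded background on 1 homozygous array and on all 3 of the wild type, and all homozygous values lay below (log2 fold change -0.60, SE 0.19, limma adjusted p = 0.335). Sod1, the cytosolic copper-zinc superoxide dismutase, had 10.68, 10.73 and 10.77 in homozygous lenses and 10.92, 10.89 and 11.08 in wild-type lenses. The difference was small and the spread within each group smaller still (log2 fold change -0.24, SE 0.10, limma adjusted p = 0.505). Nqo1, a quinone reductase and a classic NRF2 target, was the one gene of the 4 that lay higher, with 5.49, 5.36 and 5.75 in homozygous lenses and 5.15, 4.90 and 5.08 in wild-type lenses (log2 fold change 0.49, SE 0.18, limma adjusted p = 0.429). The raw signals were 103.2 to 110.7 and 103.6 to 106.8, so they overlapped before normalization. A dimmer Nqo1 probe was not above background on any array.

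Hmox1, the haem oxygenase and another NRF2 target, had 9.03, 8.84 and 9.13 in homozygous lenses and 7.98, 9.03 and 8.85 in wild-type lenses. A single low array, wild type replicate 1, sets this difference (log2 fold change 0.38, limma adjusted p = 0.652). Sod2, the mitochondrial dismutase, stood at -0.02 (95% interval -0.37 to 0.34) and Cat, catalase, at 0.05 (95% interval -0.40 to 0.49). Msra, a methionine sulfoxide reductase, was not above background on any array.

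**Figure D4:**
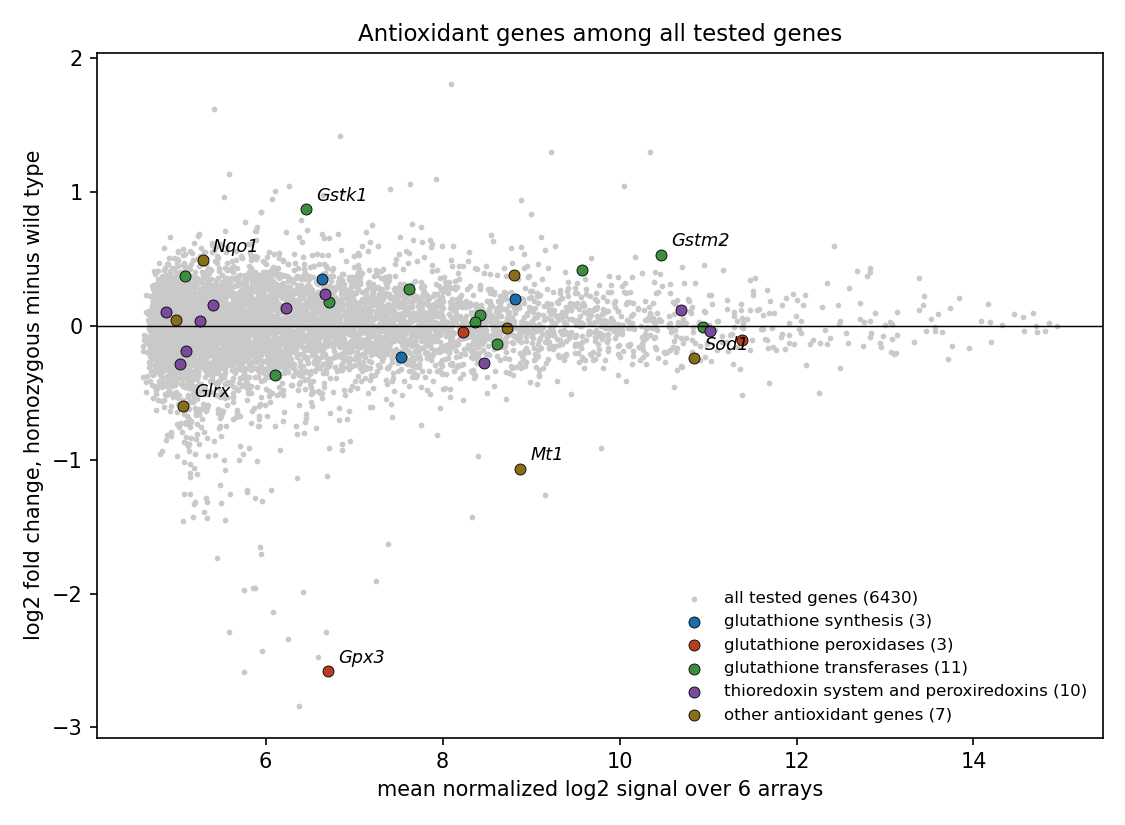
Log2 fold change, homozygous minus wild type, against mean normalized log2 signal over the 6 arrays for 6430 tested genes in grey and the 34 members in colour by role. Gpx3 lies among the genes furthest below 0, and most members lie inside the cloud of all genes.

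The wider pathway was read from 6 lists with 102 further genes, of which 94 had a probe and 53 were tested. Of the 53, 0 passed in either direction, 5 had an unadjusted limma p under 0.05, all of them higher (9.43%, close to the 9.14% of all tested genes), and the median log2 fold change was 0.07. Txndc12, a thioredoxin-like protein of the endoplasmic reticulum, had 8.74, 8.43 and 8.56 in homozygous lenses and 8.32, 7.93 and 7.82 in wild-type lenses (log2 fold change 0.55, limma adjusted p = 0.277). Glrx2, the mitochondrial glutaredoxin, had 5.28, 5.16 and 5.44 in homozygous lenses and 4.79, 4.73 and 4.69 in wild-type lenses (log2 fold change 0.56, limma adjusted p = 0.281). In both the groups did not overlap, and Glrx2 had the sign opposite to that of Glrx. That difference in sign was not tested.

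Of 13 other glutathione genes tested, Gstm6 and Gsto2 had the smallest p, with log2 fold changes of 0.44 and 0.34 (limma adjusted p = 0.485 and 0.615). In 6 genes of NADPH supply these were Tkt, the transketolase, at 0.43 and Idh1, an isocitrate dehydrogenase, at -0.37 (limma adjusted p = 0.433 and 0.612). In 3 genes of cysteine supply they were Slc3a2, the partner chain of the cystine exchanger, at 0.33, and Ahcy at -0.21. The NRF2 pathway list had 11 tested genes with a median of -0.004. Its related factor Nfe2l1 stood at -0.35 and Keap1, the protein that holds NRF2 in check, at -0.28 (limma adjusted p = 0.589 and 0.708). In the 8 tested genes of other oxidant, aldehyde and metal defence the values were -0.23 to 0.13, with Park7 at -0.12 and Ccs, the copper chaperone of Sod1, at -0.15.

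Of the 8 members with a printed antioxidant motif, 6 were tested genes of the glutathione and thioredoxin roles and 1 was Sod1, while Mt2 was not above background. Their log2 fold changes were -0.24 in Gclm, -0.24 in Sod1, -0.14 in Mgst1, 0.04 in Srxn1, 0.08 in Gstm5, 0.10 in Txnrd1 and 0.12 in Prdx1, and 0 of them passed. Nqo1 and Gstk1, which lay higher, had no antioxidant motif in these windows, which says nothing of sites elsewhere.

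**Figure D5:**
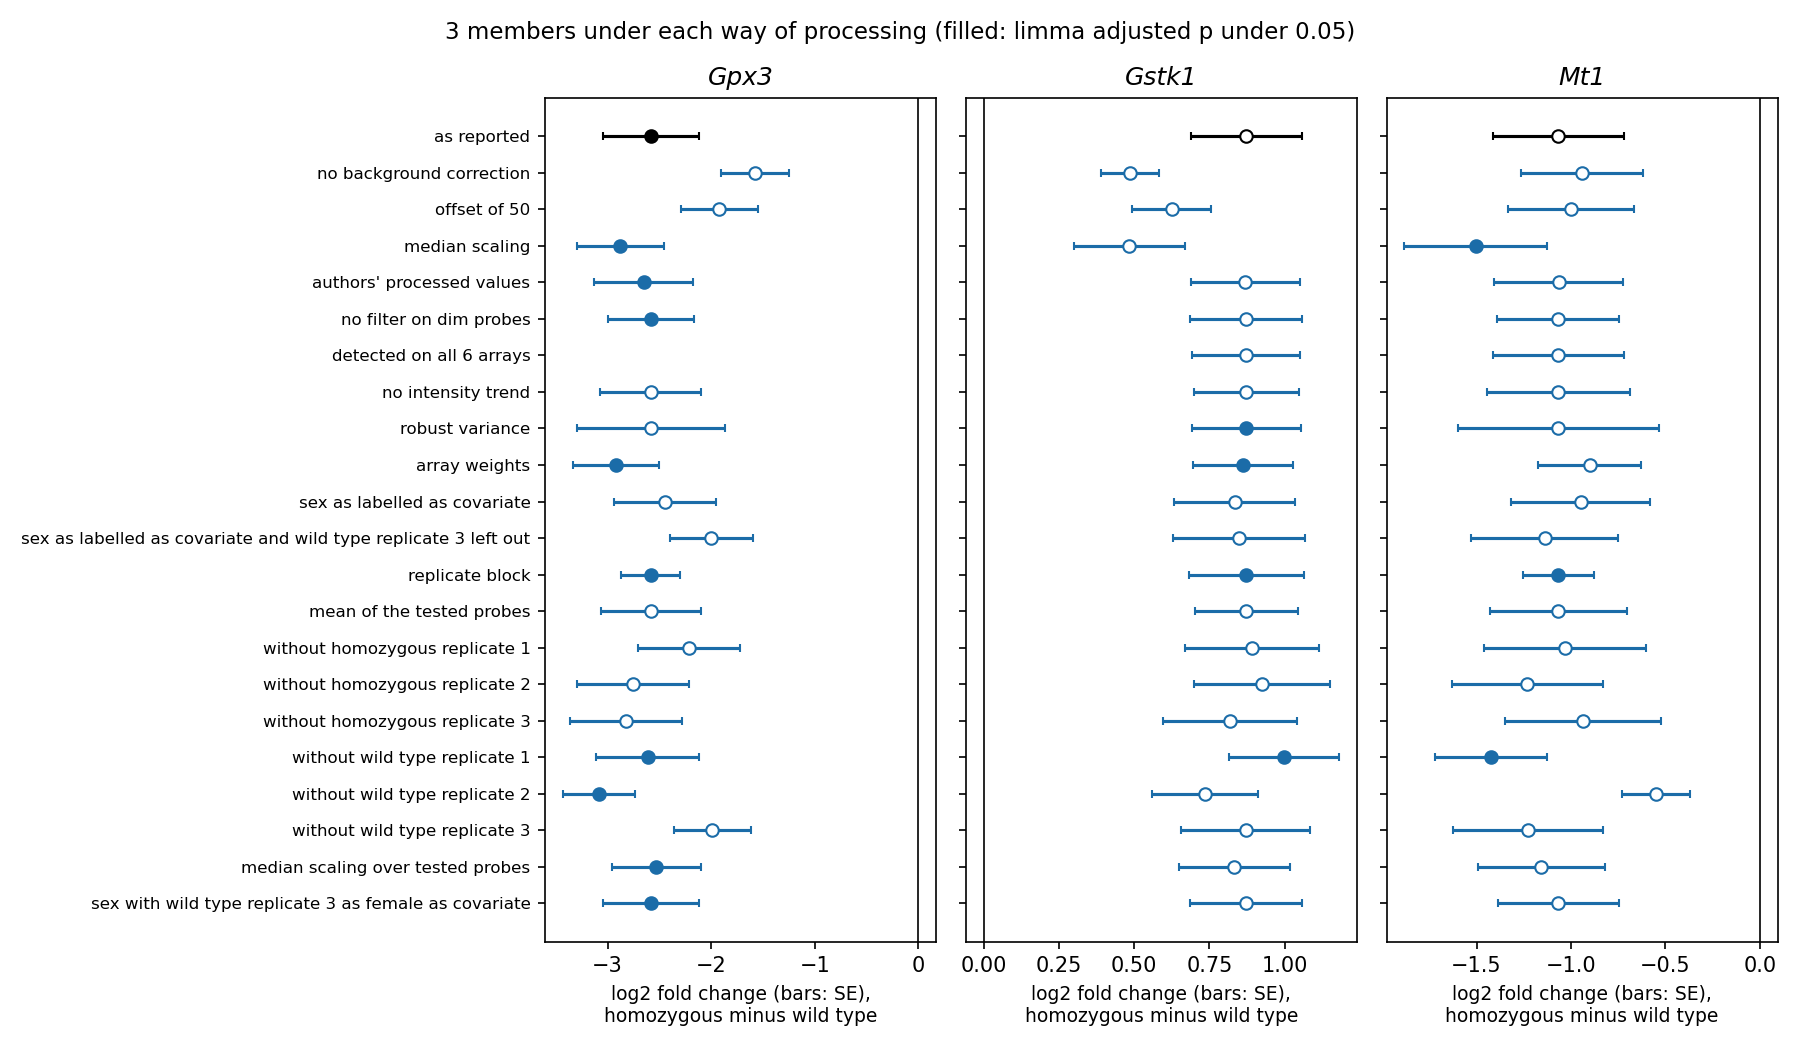
Log2 fold change with SE of Gpx3, Gstk1 and Mt1 under the reported processing (top, black) and each alternative (blue), filled where the limma adjusted p is under 0.05. All 3 keep their sign throughout, Gpx3 passes in 9 of 20 alternatives that tested it, Gstk1 in 4 of 21 and Mt1 in 3 of 21.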

How the data were processed

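RNA of 1 lens sample per mouse was measured on 6 Illumina BeadChip arrays. Per the file headers, the authors' deposited signal is an intensity per probe, and each signal stands beside its detection p-value. The table is named as not normalized, and its values are linear, above 0 and differ in median between arrays. The deposited p-value falls in steps of 1 in 798. Another deposited table gives processed intensity values for these arrays, made by the authors in a way the sources used here do not give. The submitters' processing notes list GenomeStudio 2011.1.

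limma 3.58.1 (R 4.3.3) was used for normexp background correction with an offset of 16, taking the negative controls from the detection p-values, and for quantile normalization and log2. Quantile normalization hides a shift shared by most genes, and the offset shrinks the changes of dim probes. A probe was tested if its detection p-value was under 0.05 on 3 or more of the 6 arrays, which held for 8618 of 25697, and a gene is represented by its brightest tested probe. Symbols are those of the platform annotation, in which 23978 probes have 1 symbol and 1719 none. Homozygous was compared with wild type by lmFit and eBayes with an intensity trend, two-sided, with Benjamini-Hochberg adjustment over all tested probes. The SE and 95% intervals are those of this fit. The number of arrays limits the precision. The same code was tested on simulated data.

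All members could be named. Values on every array are given for members that passed, had an unadjusted p under 0.05, had one of the 2 smallest p-values of their role or were its brightest probe, and in the further lists the 2 genes of smallest p are named. Other values were chosen after they were seen. The members and lists were chosen with earlier results of these data known, so they are no independent support. Alternatives were no or stronger background correction, other scaling, the authors' processed values, other filters, variance models, sex, a replicate block, averaged probes and leaving out each array.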

Additional observations from a re-analysis of the deposited data

How the results depend on the processing

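The processing was changed in 21 ways, 2 of them chosen after seeing the data (median scaling over tested probes, and sex with wild type replicate 3 counted as female). The count of members that passed, 1 as reported, was 0 with no background correction, an offset of 50, detection on all 6 arrays (Gpx3 not tested), no intensity trend, sex as labelled, sex as labelled without wild type replicate 3, and averaged probes. It was 2 with array weights (Gpx3 and Gstk1) and 9 with median scaling, where 658 genes passed in all, against 28 as reported. It was 0 to 3 when 1 array was left out, and 1 in the other 5 settings besides the block, although with robust variance the member was Gstk1. Under the replicate block it was 3 (Gpx3, Gstk1 and Mt1), with 102 of all genes. The labels name no pairing of mice by number. Arrays of the same number had correlations of 0.20, 0.19 and -0.03 in their deviations from the group means. Arrays of different number had -0.21 to 0.04. Whether the numbers mark something shared was not tested.

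The adjusted p of Gpx3 was 2.02e-05 to 0.416 and its log2 fold change -3.09 to -1.57. The median member, 0.04 as reported, was -0.33 with median scaling (all genes -0.32), 0.10 for members detected on all 6 arrays, 8e-04 with averaged probes and -0.0213 to 0.0807 with 1 array left out.

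Some members changed sign, none with an adjusted p under 0.05. With median scaling, whose shift of all genes carries them, the values were -0.10 in Cat, -0.25 in Gss, -0.24 in Gsta4, -0.034 in Gstm1, -0.36 in Gstm5, -0.41 in Gsto1, -0.16 in Gstz1, -0.0315 in Hmox1, -0.30 in Prdx1, -0.18 in Prdx3, -0.0516 in Slc7a11, -0.21 in Srxn1, -0.13 in Txn2, -0.0285 in Txnrd1 and -0.25 in Txnrd2. Over tested probes alone they were -0.0162 in Gstm5 and -0.0614 in Gsto1. Sod2 was 0.0087 with array weights. With sex as labelled Gsto1 was -0.0614 and Srxn1 -0.0179, and without wild type replicate 3 as well Gsto1 was -0.0104 and Gstp1 0.0621. Averaged probes gave -0.0628 in Srxn1 and -0.0931 in Txnrd2.

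With 1 array left out, the values ranged from -0.0914 to 0.28 in Cat, -0.14 to 0.0475 in Gpx4, -0.17 to 0.33 in Gss (-0.12 without wild type replicate 1 is from another probe, then the brightest, and the reported probe gave 0.54), -0.0437 to 0.20 in Gstm5, -0.0841 to 0.12 in Gsto1, -0.30 to 0.15 in Gstp1, -0.13 to 0.15 in Sod2, -0.18 to 0.30 in Srxn1, -0.42 to 0.0214 in Txnip, -0.035 to 0.28 in Txnrd1 and -0.047 to 0.37 in Txnrd2. For these sign changes other than under median scaling the cause was not tested. Dim probes limit Gpx3 in homozygous lenses and Glrx, Gstt1, Txn1, Cat, Txnip, Txnrd1, Srxn1, Nqo1 and Txn2, which lie near background.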
